A study of Homo sapiens with 51 samples.

Results

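The comparison described here set HMLE-TWIST1 cells at day 4 of a SUV39H1 and SUV39H2 knockdown against the same cells at day 2. Its members were the 6 libraries whose table columns carry the names of HMLE-TWIST1 knockdown cells at those days, 3 for each day, out of 51 libraries in the series. HMLE is an immortalised epithelial line from human breast. Its HMLE-TWIST1 derivative overexpresses TWIST1, a transcription factor that moves epithelial cells to a mesenchymal state. Whether that line is 1 clone is not given in the sources used here. Day 2 cells had been with DsiRNA (Dicer-substrate small interfering RNA) against both genes for 48 h. Day 4 cells had the same 48 h, a wash and 48 h more in fresh medium. They were read beside HMLE-TWIST1 cells given a scrambled duplex and taken at day 4 (3 libraries) and day 2 (3 libraries), and beside HMLE cells with the knockdown at day 4 (3 libraries) and day 2 (3 libraries). All of them grew in a mix of mammary epithelial growth medium and DMEM/F12 with serum. For a few genes HMLE cells given the scrambled duplex at day 4 and day 2 (3 libraries each) are shown as well. Total RNA depleted of ribosomal RNA was sequenced. The labels do not say whether replicates came from separate cultures, so each p-value measures only the spread between these libraries, which may be technical.

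SUV39H1 and SUV39H2 are histone methyltransferases that place trimethylation on lysine 9 of histone H3. The mark is read by HP1 proteins, such as the product of CBX5, and it keeps repeats and silent genes in compact heterochromatin. Double-stranded RNA in the cytoplasm is sensed by RIG-I (DDX58) and MDA5 (IFIH1), and cells that sense it make interferons. Interferon acts through a complex of transcription factors that binds the interferon-stimulated response element (ISRE) before the genes it switches on. Ribosomal protein and elongation factor mRNAs belong to another well-known class, which begins with a C followed by a run of pyrimidines, the 5′ terminal oligopyrimidine tract. That tract ties their translation and stability to nutrient and growth signals.

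The 6 libraries held 10589420 to 15612377 reads in listed genes, within the range of 10589420 to 15662385 over the 24 libraries of the duplex experiment. Levels are given as CPM (reads scaled to a common library size), and differences as the log2 fold change with its standard error (SE). Adjusted p is from limma with Benjamini-Hochberg adjustment over 18739 genes, and a gene passed below 0.05. Across 11775 well-covered genes the log2 CPM of libraries of 1 day correlated at 0.988 or more, and those of different days at 0.961 to 0.968. No library stood apart. The first principal component of the 12 HMLE-TWIST1 duplex libraries carried 55.5% of the variance. Knockdown libraries of day 4 lay at 39.3 to 40.7 on it, those of day 2 at 4.67 to 7.91, and the scramble libraries of both days at -23.9 to -21.6.

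Between the days 2760 genes were higher at day 4, which is 14.7% of the 18739 genes tested, and 2624 were lower, which is 14% (28.7% in either direction). Higher genes made up 51.3% of the calls. With total reads as the only scaling they made up 66.2%, and the median of all genes lay at 0.09 in place of 0.02. The rises reached further than the falls. A log2 fold change of at least 2 in size was seen in 109 genes that rose and in 6 that fell, and one of at least 3 in 25 genes that rose and in 0 that fell. Among genes with a mean of at least 2 on the log2 CPM scale, the 15 largest rises were led by interferon-stimulated and immune genes, and the 15 largest falls by secreted and matrix genes and by copies of ribosomal and translation factor genes.

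Both targeted transcripts were measured first. SUV39H1 had 4.47, 4.40 and 4.29 CPM at day 4 of the knockdown, against 4.77, 4.62 and 4.14 CPM at day 2. The days overlapped, and the log2 fold change was -0.04 (SE 0.24, limma adjusted p = 0.94). Scramble cells had 8.23, 8.73 and 10.2 CPM at day 4, and 13.9, 11.3 and 11.5 CPM at day 2, so every knockdown library lay below every scramble library. SUV39H2 had 23.5, 22.6 and 24.6 CPM at day 4 of the knockdown, against 21.0, 21.1 and 15.2 CPM at day 2. The days did not overlap, with replicate 3 of day 2 the lowest, and the log2 fold change of 0.32 (SE 0.12, limma adjusted p = 0.047) passed narrowly. Without that library it was 0.16 with a limma adjusted p of 0.36, and it also lost the call without any one of the day 4 libraries, with limma adjusted p between 0.066 and 0.14. The call was also lost on the deposited log2 RPKM (limma adjusted p = 0.052), with a prior count of 0.5 (0.051) and in a fit of the 6 knockdown libraries alone (0.065). Knockdown minus scramble was -0.79 for SUV39H2 and -1.02 for SUV39H1 at day 4, and -1.21 and -1.40 at day 2, on the log2 scale. The lower level of both transcripts therefore remained 48 h after the wash. TWIST1 had 331, 330 and 328 CPM at day 4, against 400, 384 and 476 CPM at day 2, all lower at day 4 (log2 fold change -0.34, SE 0.09, limma adjusted p = 0.006). It was -0.25 with a limma adjusted p of 0.061 without replicate 3 of day 2. In scramble cells the day change was -0.36, and the difference of 0.02 between the day changes did not pass (limma adjusted p = 0.97). Reads of the introduced and the native TWIST1 cannot be told apart.

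**Figure D1:**
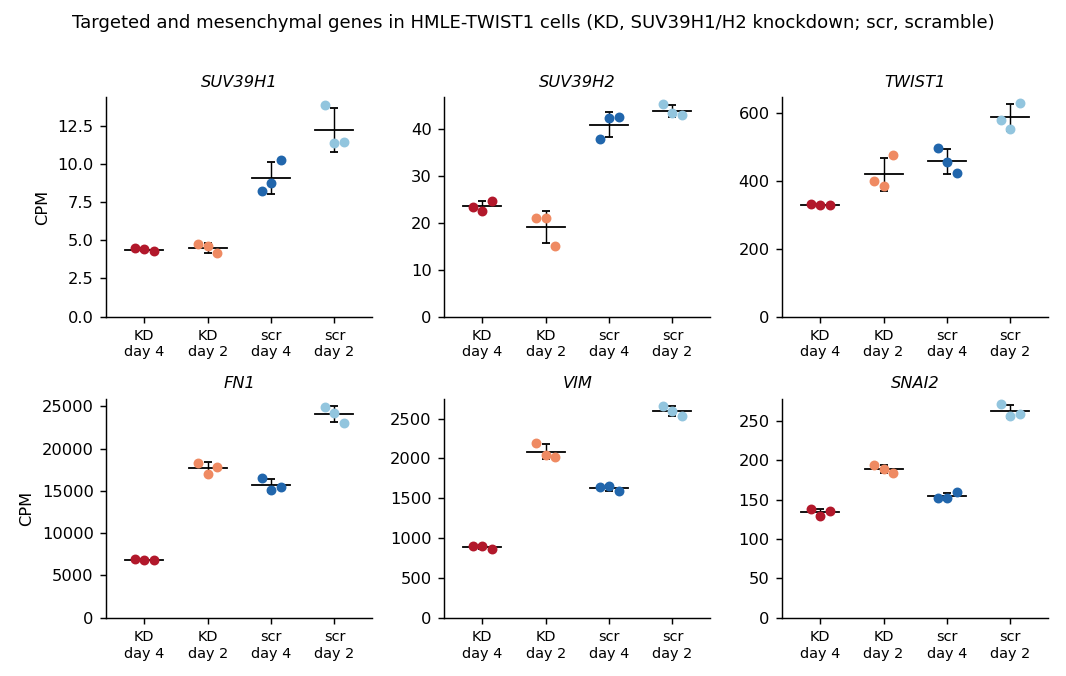
Levels in CPM of SUV39H1, SUV39H2, TWIST1, FN1, VIM and SNAI2 in HMLE-TWIST1 cells with the knockdown (KD) or the scrambled duplex (scr) at day 4 and day 2. Points are libraries, lines are means and bars are SD (n = 3); SUV39H1 and SUV39H2 lay below scramble on both days, while FN1 and VIM were lowest at day 4 of the knockdown.

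Interferon-stimulated genes all rose. Of 46 such genes listed, all 46 were tested, all 46 were higher at day 4 and 0 were lower, beside 14.7% of all genes called higher. Their median log2 fold change was 1.94, and the range was 0.73 to 5.23. In all 46 the groups did not overlap in this direction, beside 22.6% of all genes. In scramble cells 14 rose and 4 fell between the days, with a median of 0.11, beside 13.6% and 15.5% of all genes. The summed level of the 46 genes was 27402 to 28176 CPM at day 4 of the knockdown, against 6691 to 8836 CPM at day 2. It was 1781 to 1853 CPM in scramble cells at day 4, and 1710 to 1748 CPM at day 2. Day 2 knockdown libraries thus lay between scramble and day 4. In bulk RNA more RNA per cell and more cells with a response cannot be told apart.

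IFI27, which encodes a small mitochondrial protein induced by interferon, had 301, 273 and 290 CPM at day 4, against 6.47, 9.24 and 7.16 CPM at day 2. Scramble libraries of both days held 0.774 to 1.52 CPM. Its log2 fold change of 5.23 (SE 0.22, limma adjusted p = 1.2e-13) was the largest of all 18739 genes tested. BST2, the tetherin that holds budding virus particles at the membrane, had 969, 916 and 800 CPM at day 4, against 39.7, 49.3 and 47.8 CPM at day 2 (log2 fold change 4.29, SE 0.19, limma adjusted p = 2.6e-12). OAS2, which makes the 2′-5′ oligoadenylates that switch on RNase L, had 863, 920 and 912 CPM at day 4, against 82.1, 119 and 84.9 CPM at day 2. Its log2 fold change was 3.26 (SE 0.25, limma adjusted p = 1.3e-08), and scramble libraries held 0.633 to 1.66 CPM. Every one of these genes was already above scramble at day 2 and far above its own day 2 level at day 4.

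The effectors that rose included IFI6 with a log2 fold change of 3.22, MX2 with 3.06, IFITM1 with 3.31, RSAD2 (viperin) with 3.06 and CMPK2, a nucleotide kinase next to RSAD2, with 3.45. IFITM1 varied most among the day 2 libraries, at 6.59, 10.5 and 19.6 CPM, against 116, 104 and 114 CPM at day 4. TRIM22, an antiviral ubiquitin ligase, rose by 2.42, and PARP9 and PARP14, which add ADP-ribose, each by 1.94. The sensors rose too, DDX58 by 1.82, IFIH1 by 1.88 and TLR3, an endosomal sensor of double-stranded RNA, by 1.37. The smallest rise of the list was that of IRF1, at 0.73.

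The test of the difference between the day changes of knockdown and scramble cells called 2046 genes higher, which is 10.9% of those tested, and 1705 lower, which is 9.1%. Of the 46 interferon-stimulated genes 42 were called higher in this difference and 0 lower, with a median of 1.83. The 4 others, named after their values were seen, were XAF1 at 2.00 (limma adjusted p = 0.059), IRF9 at 0.75 (limma adjusted p = 0.12), IFIT2 at 0.62 (limma adjusted p = 0.12) and IRF1 at -0.27 (limma adjusted p = 0.15). Among genes with a mean of at least 2 on the log2 CPM scale over the 12 HMLE-TWIST1 libraries, the 6 largest positive differences without overlap were IFI27 at 5.42, OAS2 at 3.49, MX2 at 3.48, BST2 at 3.33, IFI6 at 3.21 and IFITM1 at 3.19. Below that mean, since scramble libraries held 0 to 6 reads of each, were CCL5 at 5.27, LGALS9 at 3.78, GBP5 at 3.67 and CMPK2 at 3.24. In HMLE knockdown cells, which share no library with this comparison, 45 of the 46 rose between the days and 0 fell, with a median of 1.29, beside 23.6% and 23.4% of all genes (46.9% in either direction). In the difference between the lines 33 of the 46 were higher in HMLE-TWIST1 and 0 lower (median 0.69), beside 17.9% and 15.1% of all genes.

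**Figure D2:**
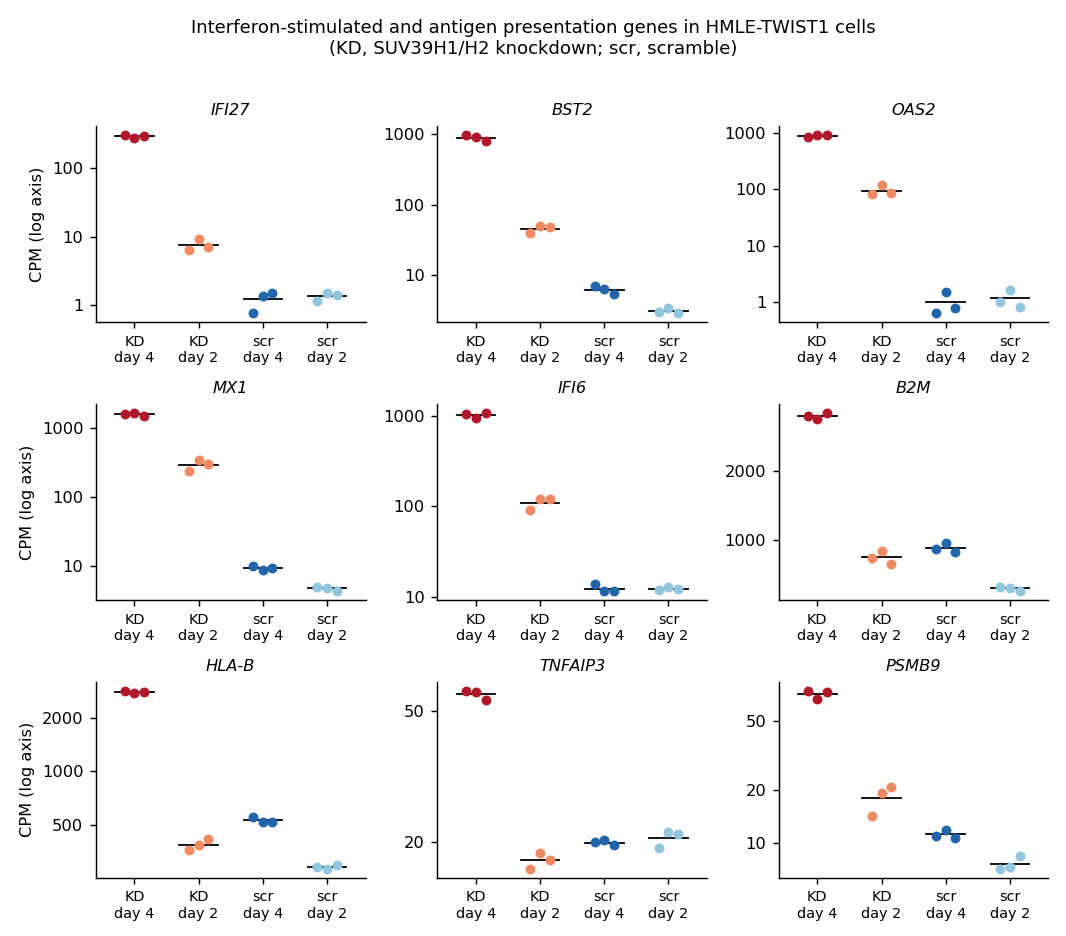
Levels in CPM, on a log axis, of IFI27, BST2, OAS2, MX1, IFI6, B2M, HLA-B, TNFAIP3 and PSMB9 in the 12 HMLE-TWIST1 libraries with the knockdown (KD) or the scrambled duplex (scr). Points are libraries and lines are means (n = 3); in each gene the 3 day 4 knockdown libraries lay above all others, and for IFI27, BST2, OAS2, MX1, IFI6 and PSMB9 the day 2 knockdown libraries lay above scramble as well.

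Of the interferon genes looked up only IFNL1 was listed in the table, and few of its reads were seen. IFNB1, IFNA1 and IFNG were not listed, so their RNA could not be read here. IFNL1, a type III interferon, had 3, 2 and 2 reads at day 4, against 0, 1 and 1 reads at day 2, and 0 reads in all 6 scramble libraries. It fell under the filter and was not tested. In HMLE knockdown cells IFNL1 had 10, 12 and 10 reads at day 4, against 0, 6 and 4 reads at day 2.

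The promoter windows of interferon-stimulated genes are shown because their letters carry the element that the list is known for. Windows ran from 250 bases before to 50 bases after the annotated start, from RefSeq on GRCh38.p14, and 35 of the 46 genes were matched by symbol or older symbol. The letters searched were TTTC, any 2 bases and TTTC again, on both strands (GAAA, any 2 bases and GAAA on the other strand), with overlapping matches counted. They were found in 21 of the 35 windows (60%). They were found in 343 of 11498 windows of all tested genes that matched (2.98%), and in 996 of all 27305 windows (3.65%). Of 39 matches 38 began between 200 bases before the start and the start itself, with the median first base at 93 bases before it. Those that began at -4 in IFIT5 and at -6 in EIF2AK2 and IFITM1 ran across the start. Below, the capitals mark the matched letters, and overlapping matches run together. The windows are IFI27 at chr14:94110608-94110670 (plus strand), BST2 at chr19:17405725-17405780 (minus strand), IFI6 at chr1:27672256-27672368 (minus strand), ISG15 at chr1:1013364-1013419 (plus strand), B2M at chr15:44711353-44711408 (plus strand) and TAP1 at chr6:32853803-32853858 (minus strand), each written 5′ to 3′ on the strand of its gene.
IFI27: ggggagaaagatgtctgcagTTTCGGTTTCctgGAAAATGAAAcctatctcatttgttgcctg
BST2: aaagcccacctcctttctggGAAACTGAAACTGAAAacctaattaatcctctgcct
IFI6: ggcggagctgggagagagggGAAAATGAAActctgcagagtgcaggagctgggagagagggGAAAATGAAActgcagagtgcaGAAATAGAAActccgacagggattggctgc
ISG15: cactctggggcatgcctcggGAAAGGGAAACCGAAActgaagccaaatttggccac
B2M: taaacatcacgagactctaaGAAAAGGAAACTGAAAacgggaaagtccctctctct
TAP1: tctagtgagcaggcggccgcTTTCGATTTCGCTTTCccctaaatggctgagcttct
The IFI6 window holds the same stretch around GAAAATGAAA in 2 copies and a further match. ISG15, a ubiquitin-like modifier, had 187, 169 and 170 CPM at day 4, against 29.4, 33.2 and 39.3 CPM at day 2, with a log2 fold change of 2.37. Genes without the letters rose as well, such as CMPK2 at 3.45 and RSAD2 at 3.06, and a match is a description of the letters and not a site that was shown to be bound.

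**Figure D3:**
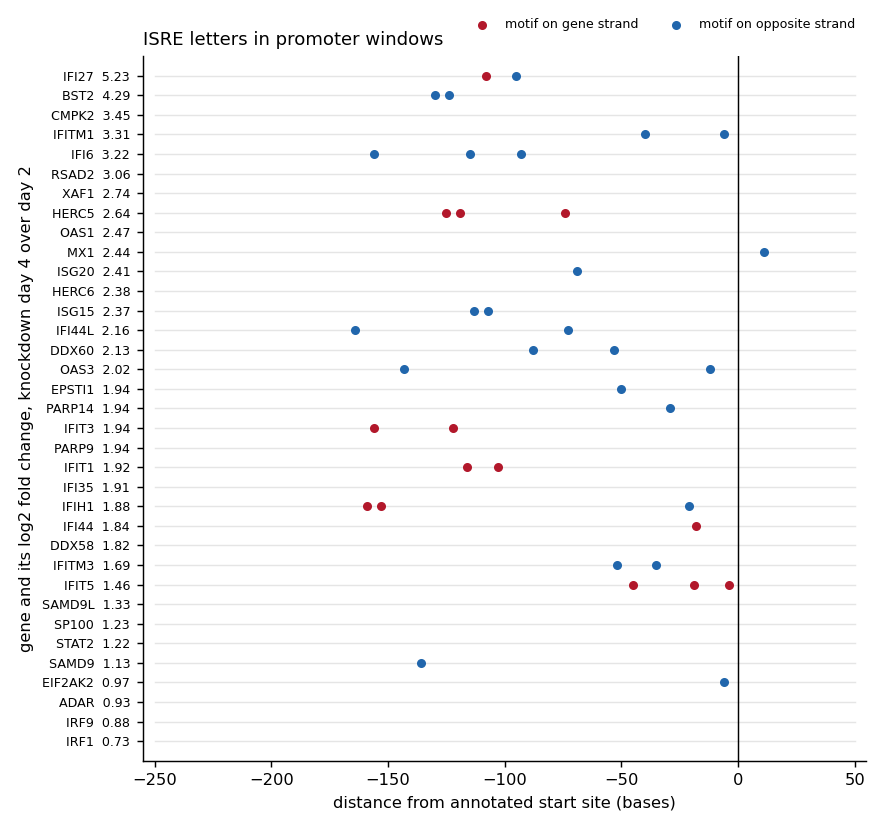
Matches to the ISRE letters in the windows of the 35 interferon-stimulated genes with a RefSeq window, by distance in bases from the annotated start (0), with genes ordered by their log2 fold change at day 4 over day 2 of the knockdown. Red points are matches on the strand of the gene and blue points on the opposite strand, each placed at its first base. At least 1 match is seen in 21 genes, and all but the MX1 match begin before the start.

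Antigen presentation genes moved with them. Of 15 genes of the class I pathway all 15 were tested, 15 were higher at day 4 and 0 lower, with a median log2 fold change of 1.61, beside 14.7% of all genes called higher. In the difference from scramble cells 14 were higher and 0 lower (median 1.33), beside 10.9% of all genes called higher. B2M, the shared light chain of class I molecules, had 3497, 3377 and 3596 CPM at day 4, against 835, 899 and 781 CPM at day 2. No day 2 library came near a day 4 library, and the log2 fold change was 2.06 (SE 0.05, limma adjusted p = 1e-21). HLA-B, a heavy chain, had 2846, 2767 and 2823 CPM at day 4, against 357, 381 and 413 CPM at day 2 (log2 fold change 2.87, SE 0.07, limma adjusted p = 1.7e-20). At day 2 knockdown minus scramble was 0.45 for B2M and 0.41 for HLA-B on the log2 scale. At day 4 these differences were 1.92 and 2.41. HLA-E rose by 1.61. TAP1, a subunit of the peptide transporter, had 161, 180 and 172 CPM at day 4, against 45.8, 58.3 and 48.2 CPM at day 2, and rose by 1.75. The ISRE letters were in 7 of the 12 windows matched for this list (58.3%), B2M and TAP1 among them. HLA genes resemble each other, so reads may be split among them in ways the deposited values cannot show.

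Genes of class II presentation, which most epithelial cells keep low, also rose. HLA-DRA had 2.65, 2.17 and 2.36 CPM at day 4, against 0.181, 0.0888 and 0 CPM at day 2 (log2 fold change 3.46, SE 0.39, limma adjusted p = 8.2e-08). CD74, the invariant chain, had 4.47, 5.58 and 4.71 CPM at day 4, against 0.242, 0.178 and 0.517 CPM at day 2, and rose by 3.51. CIITA, the coactivator of class II genes, named here after its values were seen, had 8.18, 8.99 and 9.43 CPM at day 4, against 2.42, 2.66 and 3.19 CPM at day 2, and rose by 1.64 (limma adjusted p = 6.7e-05). HLA-DRA and CD74 stand in a list of 14 leukocyte markers, of which 7 were in the table and 5 were tested. Of the 5, 4 rose (HLA-DRA, CD74, CD68 and CD14) and 0 fell, beside 14.7% and 14% of all genes. CD14 rose in scramble cells too, with 336 reads over the 3 day 4 libraries against 101 at day 2. In knockdown cells it had 175 against 88. The summed level of the list was 14.3 to 14.6 CPM at day 4 of the knockdown, against 4.14 to 4.59 CPM at day 2, and 8.58 to 10.4 CPM at day 4 and 4.66 to 5.09 CPM at day 2 of scramble. PTPRC, the defining surface marker of leukocytes, was not listed in the table. The part of other cells in these values was not tested. Of the endothelial markers 0 of 5 passed in either direction, and of the adipocyte markers 5 of 7 rose and 0 fell, at a summed 51.3 to 56.1 CPM at day 4 against 30.5 to 37.2 CPM at day 2 of the knockdown, and 54.8 to 61.5 CPM at day 4 and 43.2 to 47.0 CPM at day 2 of scramble. Among the adipocyte genes that rose, CFD had 28 reads over the 3 day 4 knockdown libraries against 3 at day 2, and FABP4 25 against 4. FABP4 lost the call with a precision weight for each gene in each library (limma adjusted p = 0.11). CIDEC lost it with a prior count of 0.5 (limma adjusted p = 0.084) and in some runs without 1 library. Of 7 neural markers 1, the microtubule protein MAP2, rose, which is near the share of all genes, and 0 fell.

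Targets of NF-kB, the factor that drives inflammatory genes, and cytokines made up the third group of rises. Of 29 genes listed 23 were tested, 18 rose and 0 fell, with a median log2 fold change of 1.08, beside 14.7% of all genes called higher. In scramble cells 12 rose and 0 fell, with a median of 0.37, beside 13.6% of all genes called higher. In the difference between the day changes 13 were higher and 1 lower, beside 10.9% and 9.1% of all genes. CCL5, a chemokine that draws T cells, had 23.0, 25.1 and 22.1 CPM at day 4, against 0.544, 0.533 and 1.12 CPM at day 2. Scramble libraries held 0 to 0.124 CPM, and the log2 fold change between the days of the knockdown was 4.79 (SE 0.30, limma adjusted p = 6.2e-13). TNFAIP3 (A20), an enzyme that limits NF-kB signalling, had 57.6, 57.2 and 54.1 CPM at day 4, against 16.6, 18.6 and 17.7 CPM at day 2. The day 2 levels were below the scramble range of 19.2 to 21.4 CPM, and the day 4 levels far above it (log2 fold change 1.67, SE 0.06, limma adjusted p = 9.9e-18). NFKBIA, the inhibitor that holds NF-kB in the cytoplasm, rose by 0.78 and the chemokine CXCL1 by 2.51. BIRC3, an inhibitor of apoptosis, rose by 2.12. Genes of the list that did not pass were NFKB1 at 0.09, REL at 0.20, IL1A at 0.25, IL1B at 0.33 and CXCL3 at 0.56.

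Other large rises lay outside these lists. LGALS9 (galectin-9) had 39.8, 40.3 and 38.1 CPM at day 4, against 2.05, 3.91 and 2.50 CPM at day 2 (log2 fold change 3.78, SE 0.35, limma adjusted p = 1.8e-09). HCP5, a long noncoding RNA of the HLA region, rose by 3.37, and GBP5, a guanylate-binding protein of the interferon response, by 3.32. PDK4, a kinase that turns off pyruvate dehydrogenase, had 22.8, 23.4 and 22.1 CPM at day 4, against 2.54, 2.22 and 3.10 CPM at day 2, and rose by 3.06. It rose by 1.49 in scramble cells, and its day changes differed by 1.57 (limma adjusted p = 0.00099). LAMP3, a lysosomal membrane protein, had 15.99, 17.9 and 15.2 CPM at day 4, against 1.63, 2.40 and 2.76 CPM at day 2, and rose by 2.80. In scramble cells LAMP3 rose by 3.28, and the difference of -0.48 between the day changes did not pass (limma adjusted p = 0.2).

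Ribosomal protein genes made up a large group of falls. Of 71 genes of the cytosolic ribosome tested 64 fell and 0 rose, with a median log2 fold change of -0.70, beside 14% of all genes called lower. In scramble cells 49 of the 71 rose and 0 fell, with a median of 0.38, beside 13.6% and 15.5% of all genes. The difference between the day changes was lower in knockdown cells for 65 of the 71 and higher for 0. Its median was -1.12, and over all genes 9.1% were lower and 10.9% higher. The summed level of the 71 genes was 9576 to 11073 CPM at day 4 of the knockdown, against 17431 to 20500 CPM at day 2. It was 22359 to 23585 CPM at day 4 and 16894 to 17455 CPM at day 2 of scramble. At day 2 the knockdown and scramble ranges overlapped, with 5 of the 71 genes called higher in the knockdown and 0 lower, beside 7.2% and 7.76% of all genes. At day 4 66 were called lower and 0 higher, beside 18.5% and 20% of all genes. Between the days of HMLE knockdown cells 66 of the 71 fell and 0 rose, beside 23.4% and 23.6% of all genes. Their median was -1.05, and RPL5 had 11511 reads over the 3 day 4 libraries against 42095 at day 2. HMLE scramble reads, summed in the same way, were also fewer at day 4. They were 20322 against 38201 for RPL5, 31357 against 56438 for RPL4, 17799 against 36762 for RPS3 and 32858 against 63627 for RPS6. The day change of HMLE scramble cells was not tested.

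RPL5, a large-subunit protein that also binds MDM2, had 377, 344 and 323 CPM at day 4, against 972, 937 and 923 CPM at day 2 (log2 fold change -1.44, SE 0.06, limma adjusted p = 4.7e-17). RPS6, a small-subunit protein phosphorylated by S6 kinase, had 731, 658 and 651 CPM at day 4, against 1707, 1576 and 1848 CPM at day 2 (log2 fold change -1.33, SE 0.06, limma adjusted p = 5.6e-16). RPL4 fell by 1.30 and RPS3 by 0.92. The days did not overlap in any of these. Translation factors, read here after their values were seen, moved the same way. EEF1A1, which brings tRNA to the ribosome, had 400, 394 and 376 CPM at day 4, against 1164, 1103 and 1089 CPM at day 2, and fell by 1.52 (SE 0.06, limma adjusted p = 5.6e-16). EEF2 fell by 1.28 and EIF4B by 1.33. EIF3L, a subunit of an initiation factor, had 87.1, 84.9 and 88.8 CPM at day 4, against 282, 288 and 291 CPM at day 2, and fell by 1.72 (SE 0.06, limma adjusted p = 1.5e-18).

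Of the 15 largest falls 6 were processed pseudogenes of this class. RPL5P3 fell by 1.73, RPS3AP26 by 1.72, RPLP0P6 by 1.67, RPL5P24 by 1.67, EIF3LP2 by 1.65 and EEF1A1P6 by 1.62. They are near copies of RPL5, RPS3A, RPLP0, EIF3L and EEF1A1, so their reads may come from the parent genes and their values are uncertain.

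The start sites of these genes are shown because the pyrimidine tract is the feature the class is known for. Of 71 ribosomal protein genes 57 had a RefSeq window, and 39 of the 57 (68.4%) carried at the annotated start a C followed by at least 4 pyrimidines. The same letters stood at 601 of 11498 starts of tested genes (5.23%) and at 1104 of 27305 starts in all (4.04%). Below are 18 bases before and 12 bases from the start onward, on GRCh38.p14, with the C and the pyrimidine run from the start in capitals. They are EEF1A1 at chr6:73521021-73521050 (minus strand), RPLP0 at chr12:120201100-120201129 (minus strand), RPS6 at chr9:19380225-19380254 (minus strand), RPS3 at chr11:75399500-75399529 (plus strand) and RPSA at chr3:39406702-39406731 (plus strand), each 5′ to 3′ on the strand of its gene.
EEF1A1: gtagtcgccgtgaacgttCTTTTTCgcaac
RPLP0: cacgcgcgggcgcgaggcCCTTCTCTCgcc
RPS6: gctaagcggaagttggccCTCTTTTCCgtg
RPS3: tccgcccgcgagccacttCCTTTCCTTTCa
RPSA: tcatttcctgccgcctgtCTTTTCCgtgct
RPLP0, a protein of the ribosomal stalk, had 166, 176 and 159 CPM at day 4, against 503, 452 and 493 CPM at day 2, and fell by 1.53. RPSA, which also serves as a laminin receptor, had 59.3, 53.3 and 56.6 CPM at day 4, against 106, 96.5 and 103 CPM at day 2, and fell by 0.85. The 5 genes shown fell, by 0.85 to 1.53, and no day 4 library reached a day 2 level. Genes without the letters at the annotated start fell as far, such as RPL3 at -1.34, RPL4 at -1.30 and RPS27A at -1.14. Genes with the letters that did not pass were RPS10 at 0.15, RPL21 at 0.03, RPS27 at -0.08, RPL36 at -0.28 and RPS21 at -0.53.

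**Figure D4:**
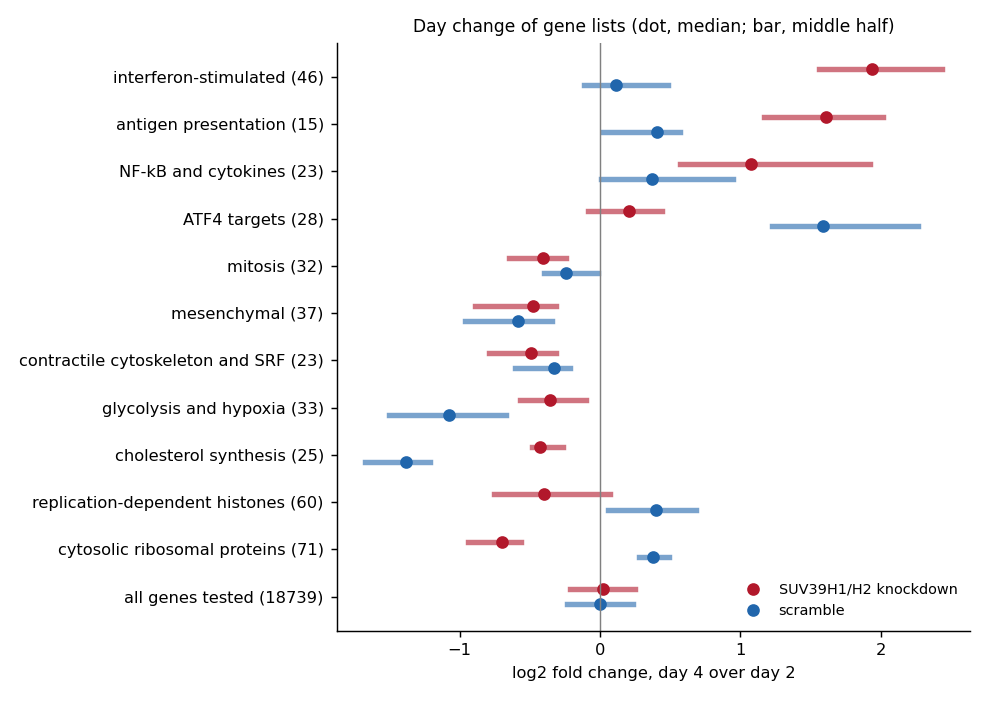
Median (dot) and interquartile range (bar) of the log2 fold change of day 4 over day 2 for 11 gene lists and for all 18739 genes tested, in HMLE-TWIST1 cells with the SUV39H1 and SUV39H2 knockdown (red) or the scrambled duplex (blue); the number of genes tested is in brackets. Interferon-stimulated genes (1.94 in knockdown, 0.11 in scramble) and ribosomal protein genes (-0.70 in knockdown, 0.38 in scramble) have medians far apart between the arms, and mesenchymal genes (-0.48 in knockdown, -0.58 in scramble) have medians close together.

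Mesenchymal genes fell between the days in both arms. Of 37 tested in knockdown cells 26 fell and 3 rose, with a median log2 fold change of -0.48, beside 14% of all genes called lower and 14.7% called higher. In scramble cells 26 fell and 2 rose, with a median of -0.58, beside 15.5% and 13.6% of all genes. In the difference between the day changes 6 were higher and 5 lower, shares near the 10.9% and 9.1% of all genes. FN1 (fibronectin) had 6932, 6789 and 6862 CPM at day 4 of the knockdown, against 18281, 16991 and 17867 CPM at day 2 (log2 fold change -1.37, SE 0.08, limma adjusted p = 3.4e-11). It fell by 0.62 in scramble cells, and the difference of -0.75 passed (limma adjusted p = 4.1e-05). VIM (vimentin) had 903, 899 and 858 CPM at day 4, against 2191, 2042 and 2016 CPM at day 2, and fell by 1.23 (limma adjusted p = 1.3e-05). Its difference from scramble of -0.56 did not pass (limma adjusted p = 0.1). FAP, a surface protease of activated fibroblasts, had 21.7, 22.1 and 24.8 CPM at day 4, against 81.4, 90.7 and 66.9 CPM at day 2, and fell by 1.78, with a difference from scramble of -1.43 (limma adjusted p = 5.1e-07). COL1A1 (collagen I) fell by 0.89, less than the fall of 1.34 in scramble cells, with a difference of 0.45 (limma adjusted p = 0.0018). The 3 mesenchymal genes that rose were IGFBP5 by 2.02, NT5E by 0.98 and PDGFRA by 0.87. IGFBP5, which binds insulin-like growth factors, had 17.5, 18.4 and 17.5 CPM at day 4, against 4.35, 4.35 and 4.14 CPM at day 2.

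Epithelial markers changed less. Of 43 tested 12 rose and 4 fell, with a median of 0.27, beside 14.7% and 14% of all genes. In the difference from scramble 8 were higher and 3 lower, beside 10.9% and 9.1% of all genes. SPINT1, an inhibitor of surface proteases, had 3.49, 3.61 and 3.36 CPM at day 4, against 1.45, 1.24 and 1.21 CPM at day 2, and rose by 1.33 (limma adjusted p = 1e-10). The desmosome protein DSP rose by 0.38 and the transcription factor GRHL1 by 0.46, while the desmosomal cadherin DSC3 fell by 0.72. The defining epithelial adhesion genes stayed near 0. CDH1 (E-cadherin) had 2, 5 and 1 reads at day 4, against 1, 0 and 3 reads at day 2, and EPCAM had 3, 3 and 2 reads, against 0, 2 and 2 reads. Neither passed, and at these counts a difference was not detectable. In HMLE knockdown cells CDH1 had 20994 reads over the 3 day 4 libraries, against 20793 over the 3 day 2 libraries. Of the factors that drive the transition SNAI2 had 138, 130 and 135 CPM at day 4, against 195, 189 and 184 CPM at day 2, and fell by 0.49 (limma adjusted p = 1.7e-08). In scramble cells it fell by 0.76, and the difference of 0.27 passed (limma adjusted p = 0.0081). ZEB1 stood at 0.12 (limma adjusted p = 0.76) and CDH2 (N-cadherin) at -0.24 (limma adjusted p = 0.24). KLF4 rose by 0.88, TCF4 by 0.45 and FOXC1 by 0.64, and of the 16 transition factors 7 rose and 3 fell. Of 17 mammary basal markers 4 rose and 3 fell, and of 11 luminal markers 2 rose and 1 fell, beside the same shares of all genes. The keratin KRT5 had 5.08, 4.73 and 5.14 CPM at day 4, against 2.60, 2.13 and 2.59 CPM at day 2, and rose by 0.99. In scramble cells KRT5 fell by 1.63, and the difference of 2.62 passed (limma adjusted p = 1.5e-12).

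Matrix and contractile genes followed the mesenchymal list, with which they share members. Of 23 genes of the contractile cytoskeleton and its factor SRF 17 fell and 1 rose, with a median of -0.49 (14% of all genes fell). In scramble cells 18 fell and 0 rose, with a median of -0.32 (15.5% of all genes fell). FLNA, which crosslinks actin, had 682, 684 and 672 CPM at day 4, against 1380, 1291 and 1459 CPM at day 2, and fell by 1.02. Of 25 matricellular and elastic fibre genes 15 fell and 3 rose. FBN2 (fibrillin-2) had 127, 127 and 125 CPM at day 4, against 344, 329 and 342 CPM at day 2, and fell by 1.42. It stood at 0.12 in scramble cells (limma adjusted p = 0.12), and the difference of -1.54 passed (limma adjusted p = 4.1e-14). TNC (tenascin C) fell by 1.22 in knockdown cells and by 1.46 in scramble cells. The collagenase MMP13 had 1.29, 0.722 and 1.21 CPM at day 4, against 0.181, 0.0888 and 0 CPM at day 2, and rose by 2.38 (limma adjusted p = 1.1e-07). With a precision weight for each gene in each library it was 3.26 with a limma adjusted p of 0.093, which ends the call. Further large falls were those of WISP2, a secreted matricellular protein, by 2.10, SCG5, a chaperone of a prohormone convertase, by 1.85, the transcription factor MAF by 1.67 and dermatopontin (DPT) by 1.65. A further 3 of the 15 largest falls carry only clone names. Whether the counting used strand is not given in the sources used here, so reads of overlapping or antisense genes cannot be told apart.

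Some pathways that moved strongly in scramble cells moved little in the knockdown. The first principal component, above, kept the scramble days together. The second, with 24.2% of the variance, set the days apart in both arms. Scramble libraries lay at 23.1 to 25.3 on it at day 4 and at -16.1 to -15.9 at day 2. Knockdown libraries lay at 7.10 to 8.33 at day 4 and at -17.7 to -15.2 at day 2. Targets of ATF4, the factor of the amino acid stress response, were 9 higher and 3 lower of 28 in knockdown cells, with a median of 0.21, beside 14.7% and 14% of all genes. In scramble cells 26 rose and 0 fell, with a median of 1.59, beside 13.6% of all genes called higher. The difference was lower in knockdown cells for 25 and higher for 0, with a median of -1.38, beside 9.1% of all genes called lower. ASNS (asparagine synthetase) had 71.3, 50.7 and 86.9 CPM at day 4 of the knockdown, against 51.1, 54.3 and 50.5 CPM at day 2. The days overlapped, and the log2 fold change of 0.39 did not pass (limma adjusted p = 0.22). In scramble cells it had 524, 502 and 510 CPM at day 4, against 58.2, 56.2 and 57.8 CPM at day 2, and the difference between the day changes was -2.77 (limma adjusted p = 3.2e-06). The pseudokinase TRIB3 had a difference of -2.63 and the cystine carrier SLC7A11 one of -2.36. DDIT3 (CHOP), a stress factor, did rise in knockdown cells, with 31.4, 27.2 and 35.9 CPM at day 4 against 11.8, 12.6 and 16.6 CPM at day 2, by 1.20. In scramble cells DDIT3 rose by 2.49.

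Cholesterol synthesis genes fell less in the knockdown than in scramble. Of 25 tested 18 fell and 1 rose in knockdown cells, with a median of -0.43, while in scramble cells 23 fell and 0 rose, with a median of -1.38. The difference was higher in knockdown cells for 21 and lower for 0. Over all genes 14% fell and 14.7% rose in knockdown cells, and 15.5% fell and 13.6% rose in scramble cells. In the difference 10.9% of all genes were higher and 9.1% lower. SQLE, an enzyme of sterol synthesis, had 105, 104 and 102 CPM at day 4, against 152, 140 and 140 CPM at day 2, and fell by 0.47. In scramble cells SQLE had 83.3, 81.04 and 84.5 CPM at day 4, against 270, 266 and 258 CPM at day 2, and fell by 1.67. Knockdown cells thus began lower at day 2 and stood above scramble at day 4. Glycolysis and hypoxia genes had the same order, with 22 of 33 lower and 1 higher in knockdown cells (median -0.36), 31 lower and 0 higher in scramble cells (median -1.08), and a difference that was higher for 29 and lower for 0. GAPDH was an exception, with 1133, 1150 and 1138 CPM at day 4 of the knockdown, against 2500, 2458 and 2633 CPM at day 2. It fell by 1.15 in knockdown cells and by 1.30 in scramble cells, and the difference of 0.15 did not pass (limma adjusted p = 0.15). HK2, a hexokinase, rose by 0.96 in knockdown cells and stood at -0.08 in scramble cells.

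**Figure D5:**
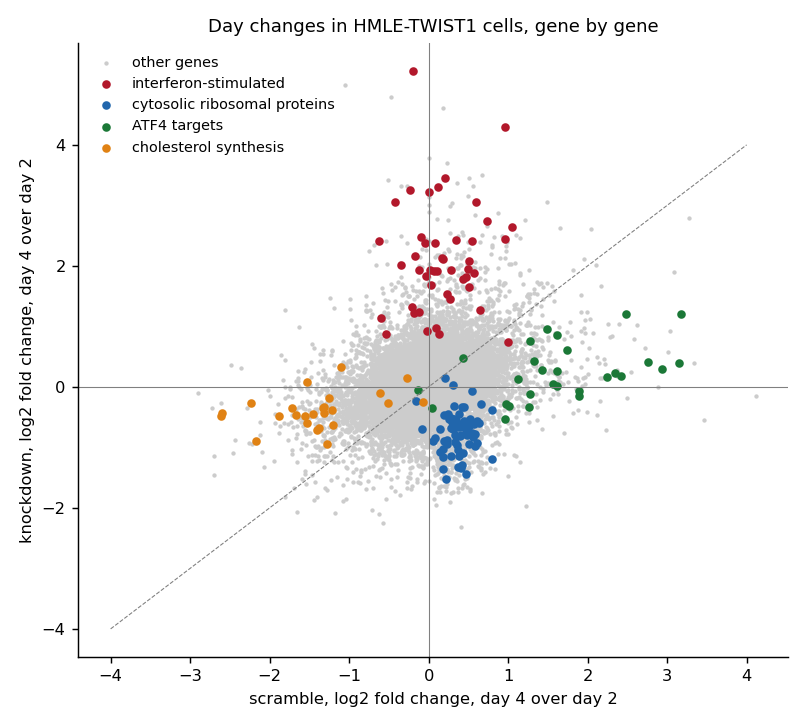
Log2 fold change of day 4 over day 2 in HMLE-TWIST1 cells with the knockdown (vertical axis) and with the scrambled duplex (horizontal axis), one point per gene tested (18739), with 4 gene lists in colour and the line of equal change dashed. Interferon-stimulated genes lie high and near 0 on the scramble axis, ATF4 targets lie near 0 on the knockdown axis and to the right, and ribosomal protein genes lie low and slightly to the right.

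Across all genes with enough reads the day changes of knockdown and scramble cells, which share no library, had a Pearson correlation of 0.32 and a Spearman correlation of 0.36 over 11782 genes. Those of HMLE-TWIST1 and HMLE knockdown cells had 0.45 and 0.38 over 11682 genes. Genes are not independent replicates, and these values describe the libraries only. In scramble cells 2550 genes rose (13.6%) and 2896 fell (15.5%). Higher genes made up 46.8% of the calls in scramble cells, and 59.9% with total reads as the only scaling.

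Growth, survival and stress genes went both ways. Over all genes 14.7% rose and 14% fell. Of 26 immediate early and AP-1 genes 18 rose and 1 fell (median 0.46). FOSL1, a Fos-family subunit of AP-1, had 17.8, 16.8 and 16.9 CPM at day 4, against 8.58, 7.64 and 8.54 CPM at day 2, and rose by 1.05. EGR1 rose by 0.75, and by 0.82 in scramble cells, and its difference of -0.06 did not pass (limma adjusted p = 0.8). Of 31 apoptosis regulators 13 rose and 2 fell. TNFSF10 (TRAIL), a death ligand that interferon induces, had 156, 152 and 145 CPM at day 4, against 39.6, 65.5 and 43.6 CPM at day 2, and rose by 1.64. TNFRSF10D, a decoy receptor for it, averaged 11.7 ± 0.29 CPM at day 4 and 26.6 ± 2.17 CPM at day 2 (SD, n = 3 each), and fell by 1.17. The ligand and its decoy thus moved in opposite directions. Of 25 p53 targets 8 rose and 5 fell, the falls near the share over all genes, with PMAIP1 (NOXA) higher by 0.89 and CCNG1 (cyclin G1) lower by 0.65. Of 25 NRF2 and thioredoxin genes 12 fell and 1 rose. NQO1, a quinone reductase, had 74.8, 69.0 and 70.6 CPM at day 4, against 152, 148 and 153 CPM at day 2, and fell by 1.08, with a difference from scramble of -0.83 (limma adjusted p = 4e-07). Of 29 genes of the TGF-beta response 11 fell and 3 rose. The receptor TGFBR2 rose by 0.51, and PMEPA1, a feedback inhibitor of the pathway, fell by 0.96. DKK1, a secreted WNT inhibitor, had 17.1, 15.3 and 14.3 CPM at day 4, against 11.2, 11.6 and 11.1 CPM at day 2, and rose by 0.45. In scramble cells DKK1 fell by 1.81, and the difference of 2.26 passed (limma adjusted p = 4.3e-14). The receptor kinase AXL, which marks mesenchymal cells, had 186, 196 and 201 CPM at day 4, against 357, 333 and 358 CPM at day 2, and fell by 0.85.

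Genes of cell division fell a little. Of 32 mitosis genes 17 fell and 0 rose, with a median of -0.41 (14% of all genes fell). In scramble cells 14 fell and 0 rose, with a median of -0.24 (15.5% of all genes fell). KIF20A, a mitotic kinesin, had 106, 103 and 109 CPM at day 4, against 186, 191 and 185 CPM at day 2, and fell by 0.82. CCNB1 (cyclin B1) fell by 0.63 and BUB1B, a checkpoint kinase, by 0.60. All 32 fell in HMLE knockdown cells, with a median of -2.62, beside 23.4% of all genes called lower. The difference between the lines was higher in HMLE-TWIST1 for 30 and lower for 0, beside 17.9% and 15.1% of all genes. Reads of HMLE scramble cells, summed over 3 libraries, were also fewer at day 4 than at day 2. They were 213 against 1641 for KIF20A, 506 against 3065 for CCNB1, 323 against 1934 for BUB1B and 1481 against 6814 for TPX2. That day change was not tested. Of 37 DNA replication genes 10 fell and 2 rose in HMLE-TWIST1 knockdown cells, beside 14% and 14.7% of all genes. Replication-dependent histone genes, whose transcripts mostly lack a poly(A) tail and are kept by the total RNA method, fell for 30 of 60 and rose for 5, with a median of -0.40. In scramble cells 27 rose and 2 fell, with a median of 0.40, beside 13.6% and 15.5% of all genes. In the difference 34 were lower and 0 higher, beside 9.1% and 10.9% of all genes. HIST1H1B, a linker histone, had 158, 150 and 132 CPM at day 4, against 320, 281 and 394 CPM at day 2, and fell by 1.17. HIST3H2A was among the 5 that rose, by 1.496. Histone genes are near copies, so single values are uncertain.

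Heterochromatin genes included both directions. Of 27 genes of H3K9 methylation and heterochromatin, the SUV39H genes among them, 4 rose and 5 fell, beside 14.7% and 14% of all genes, with a median of -0.05. CBX5, which encodes HP1 alpha, had 326, 334 and 322 CPM at day 4, against 747, 729 and 713 CPM at day 2 (log2 fold change -1.16, SE 0.05, limma adjusted p = 3.9e-17). The scramble libraries of both days lay at 705 to 750 CPM, so only the day 4 knockdown libraries were low among the 12, and the difference of -1.10 passed (limma adjusted p = 3.2e-13). SMCHD1, a protein of the silent X chromosome and of gene cluster silencing, had 549, 540 and 518 CPM at day 4, against 293, 314 and 289 CPM at day 2, and rose by 0.84 (limma adjusted p = 6.3e-12). CBX1 (HP1 beta) fell by 0.27 and MORC2, a silencing ATPase, by 0.28, or by 0.21 with total reads as the only scaling (limma adjusted p = 0.056). CBX5 fell by 1.39 and SMCHD1 rose by 0.43 in HMLE knockdown cells. Reads of HMLE scramble cells, summed over 3 libraries, moved in the same directions. CBX5 had 13539 of them at day 4 against 23117 at day 2, and SMCHD1 had 8252 against 6392. The day change of HMLE scramble cells was not tested. In HMLE-TWIST1 knockdown cells 85 of 492 zinc finger genes tested rose, near the 14.7% of all genes, and 10 fell, beside 14% of all genes. Their median was 0.12. With total reads as the only scaling 137 rose and 5 fell. Over all genes tested that scaling called 3753 higher and 1914 lower, in place of 2760 and 2624. Of 7 germline genes 0 passed in either direction by limma, and of 38 clustered protocadherin genes 0 rose and 3 fell, PCDHGC3 by 0.80, PCDHGB7 by 0.83 and PCDHGA12 by 0.69. Without replicate 2 of day 2 PCDHGA12 stood at -0.60 with a limma adjusted p of 0.053.

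The test between the lines called 3346 genes higher in the day change of HMLE-TWIST1 knockdown cells than in that of HMLE knockdown cells, and 2827 lower. These calls depended on scaling. With total reads only, 5596 were higher and 1614 lower, 77.6% of the calls in place of 54.2%, and the median of all genes moved to 0.25 in place of 0.04. In HMLE knockdown cells 4419 genes rose and 4378 fell between the days, and the share of higher calls was 50.2%, or 34.5% with total reads only, with the median of all genes at -0.12. FN1 had a difference of -3.23, the most negative among genes with a mean of at least 2 on the log2 CPM scale over the 12 knockdown libraries and no overlap. SCG5, below that mean, had one of -4.28. FN1 rose in HMLE knockdown cells, with 2202, 2698 and 2956 CPM at day 4, against 703, 706 and 728 CPM at day 2. HMLE scramble cells moved the same way, with 2289, 2728 and 2534 CPM at day 4, against 892, 1004 and 954 CPM at day 2. The day change of HMLE scramble cells was not tested, nor was the part of the knockdown in the line differences. IGFBP5 had a difference of 2.89.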

How the data were processed

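RNA was measured by stranded sequencing of total RNA after removal of ribosomal RNA. The authors deposited a table of log2 RPKM values with named columns in 3 parts, and per the submitters' processing notes reads were aligned with STAR and counted with HTSeq on hg19 (GRCh37), with versions not given in the sources used here. A count table with 81 unnamed columns was not used. In the part with the duplex libraries (24 libraries, 19777 genes) the deposited log2 values returned whole reads after an offset of 2.0 reads was removed: 100.0% of values were whole within 0.0001. From these reads log2 CPM were computed with a prior count of 2 and trimmed-mean scaling (30% of ratios and 5% of levels trimmed). A gene was kept if 3 or more libraries held about 10 reads of it and its total reached 15. All 24 libraries, 8 groups of 3, entered 1 fit in limma 3.58.1 (R 4.3.3, statmod 1.5.0) with intensity trend and robust variance, with 16 residual degrees of freedom, tested on simulated data.

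The day changes were compared within knockdown cells, with scramble cells and with HMLE cells. Alternatives were other scalings, filters, prior counts and fits, the deposited log2 RPKM itself, and each library left out. The members and the 44 gene lists were chosen with earlier results of these data known. Genes named in the text were the 2 targets, 8 genes of the transition (TWIST1 among them), the 15 largest changes each way at a mean log2 CPM of at least 2, the 6 largest differences each way at that mean over the 12 libraries compared, all without overlap between groups, and 4 genes per list by smallest p. Further genes were named after their values were seen, among them ISG15, TAP1, DDX58, IFIH1, TLR3, CIITA, TNFSF10, EEF1A1, RPLP0, RPSA, EEF2, EIF4B, PDGFRA and IFNL1. Promoter windows came from RefSeq on GRCh38.p14, matched by symbol or older symbol. Depth of 10589420 to 15612377 reads limits genes of a few reads. Some results that the naming rule covers are not reported here.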

Additional observations from a re-analysis of the deposited data

Results flagged for a closer look

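The day changes of knockdown and scramble HMLE-TWIST1 cells differed by the test of the difference itself in limma, with adjusted p below 0.05, for the genes below, which are the transition genes, the largest by the naming rule and others whose difference is given above. On the log2 scale, knockdown minus scramble, the difference was 5.42 for IFI27, 3.49 for OAS2, 3.48 for MX2, 3.33 for BST2, 3.21 for IFI6, 3.19 for IFITM1, 0.27 for SNAI2, 5.27 for CCL5, 3.78 for LGALS9, 3.67 for GBP5, 3.24 for CMPK2, 2.62 for KRT5, 2.26 for DKK1, 1.57 for PDK4 and 0.45 for COL1A1. It was -0.75 for FN1, -2.30 for TPD52L1, -2.36 for SLC7A11, -2.40 for FAM129A, -2.41 for CLSTN2, -2.63 for TRIB3, -2.77 for ASNS, -0.83 for NQO1, -1.10 for CBX5, -1.43 for FAP and -1.54 for FBN2. The call of CLSTN2 was lost with a prior count of 0.5 (-2.43, limma adjusted p = 0.17).

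The day changes of HMLE-TWIST1 and HMLE knockdown cells differed by the same kind of test for a like choice of genes. The day change of HMLE scramble cells is not part of this difference. HMLE-TWIST1 minus HMLE, the difference was 3.21 for SLC2A5, 2.91 for ZBTB16, 2.90 for HIST1H2AL, 2.89 for IGFBP5, 2.76 for NCAPG, 2.73 for HIST1H3G, 1.61 for EPCAM, 0.81 for SUV39H2, 0.76 for CDH2, 0.76 for VIM, 3.69 for PDK4, 3.51 for HLA-DRA, 3.45 for CMPK2 and 3.31 for CCL5. It was -0.47 for SNAI2, -2.90 for TNFRSF11B, -2.91 for IVL, -2.92 for PMEPA1, -3.03 for MAF, -3.13 for KRT10, -3.23 for FN1 and -4.28 for SCG5. EPCAM was at most 3 reads in each HMLE-TWIST1 knockdown library, so its difference rests on HMLE cells. The same holds for IVL, with 0 reads over the 3 day 4 and 1 read over the 3 day 2 HMLE-TWIST1 knockdown libraries, against 11892 and 2077 reads in HMLE. CMPK2 had 0 reads in all 6 HMLE knockdown libraries, so its difference rests on HMLE-TWIST1 cells. PDK4 had 20 reads over the 3 day 4 and 40 over the 3 day 2 HMLE knockdown libraries, and HLA-DRA 9 and 11. Between the days of HMLE-TWIST1 knockdown cells ZBTB16 at 0.33, HIST1H2AL at 0.24, NCAPG at -0.19 and TNFRSF11B at 0.18 did not pass. In HMLE knockdown cells they stood at -2.58, -2.66, -2.95 and 3.08. HIST1H3G stood at -0.51 in HMLE-TWIST1 and at -3.24 in HMLE. CDH2, at -0.24 in HMLE-TWIST1, did not pass there either. Without 1 HMLE knockdown library VIM was 0.66 to 0.68 in the 3 cases that lost the call, with limma adjusted p of 0.051 to 0.059. The call of IVL was lost with precision weights (-3.35, limma adjusted p = 0.22).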

How the results depend on the processing

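Of 258 counts of calls under alternatives that kept all libraries, 256 stayed within 1.5 times the reported count. The 2 others were the genes called in the difference between the lines with total reads as the only scaling, 5596 higher and 1614 lower in place of 3346 and 2827; the cause was not tested. Of 5079 values of named genes under the alternatives, 4993 kept their call or their lack of one, 53 lost the call and 33 gained one. Reversals of direction with a call in either fit numbered 0. A change of sign without a call in either fit was counted among the 4993. Leaving out 1 library at a time gave 2170 to 2482 genes higher and 2214 to 2419 lower at day 4 of the knockdown, 1739 to 1951 and 1475 to 1660 in the difference from scramble, 2560 to 3318 and 2568 to 3067 in the difference between the lines, 2056 to 2291 and 2363 to 2590 in scramble cells, and 3989 to 4695 and 3475 to 4238 in HMLE knockdown cells. In the same runs 46 of the interferon-stimulated genes were higher each time, 62 to 66 ribosomal protein genes lower and 21 to 24 mesenchymal genes lower.

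No pairing of the libraries by replicate number was seen. Same-numbered deviations of day 4 and day 2 knockdown libraries correlated at 0.108, 0.058 and -0.048 over 11782 genes, and not every library correlated best with its own number. Deviations were taken from the mean of 3 libraries, which ties them to each other. This check therefore cannot settle whether the numbers pair. With the replicate block 2694 genes were higher and 2573 lower at day 4 of the knockdown, and 1989 and 1660 in the difference from scramble. SUV39H2 kept its value of 0.32 between the days with the block, with a limma adjusted p of 0.058.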
